A study of Gallus gallus with 6 samples.

Results

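The genes described here are those whose products drive the cell division cycle and copy the DNA, as named in RNA-seq tables of growing chicken feathers. They were taken by name alone: cyclins A, B, D and E, cyclin-dependent kinases and their inhibitors, CDC genes other than CDC42, MCM, ORC and GINS genes, CENP, BUB and MAD2 genes, Polo and Aurora kinase names, type II topoisomerases, PCNA, ribonucleotide reductase, RFC and replicative polymerase subunits, E2F factors, condensin and SMC genes. The name rule itself uses no measured value, though it was set with earlier results of these data known. The rule took 103 genes, 50 of the 6534 entries in the first deposited table and 87 of the 6534 entries in the second. Both tables listed 34 of them, out of 2191 genes listed once in each table, while 16 were in the first table only and 53 in the second only.

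Growing neck, wing and leg feathers were plucked from untreated, wild type adult chickens (strain given as domesticus), and each of the 6 libraries came from 1 region, with 2 replicates per region. The submitters' design text says that the mesenchymal pulp was removed and that the branching epithelium of several feathers was pooled, whereas the study's methods name the whole follicle as a source of RNA, so the dissection is not settled. Replicate 1 of every region is in the first table, as whole numbers of an unstated unit, and replicate 2 is in the second table, in FPKM (fragments scaled to transcript length and to the library's mapped fragments). The second table heads its neck, wing and leg columns with 3 different chicken numbers, so if these are birds, region and bird cannot be told apart there, and nothing says whether the replicates are separate birds.

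A dividing cell passes from G1, where D-type and E-type cyclins with their kinases release E2F factors, into S phase, where origins licensed by the ORC and MCM proteins fire and the DNA is copied. It then enters mitosis under cyclin B and CDK1, attaches its chromosomes to the spindle at kinetochores, and leaves mitosis when the anaphase-promoting complex destroys the cyclins. In a growing feather the dividing keratinocytes lie at the follicle base and in the forming barb ridges, above which cells stop dividing and fill with keratin. Many of these genes are transcribed mainly in cycling cells. Some names in the rule belong to proteins with other work, such as splicing or transcription. They form a role group of their own but are included in the member counts unless stated otherwise.

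The 2 tables differ in scale as well as unit, and this touches every comparison. Values given as a triple below are in the order neck, wing, leg. In the first table the values summed to 4195932, 1780292 and 3051339, and the 10 highest entries held between 40.7% (wing) and 67.6% (leg) of the sum. In the second table the sums were between 701758 and 805460 FPKM, and the 10 highest entries held between 11.6% (wing) and 31.5% (leg). Read counts per library are not given, so the depth is unknown. The lowest mean of any entry in the first table was 9.67, and its members had means between 10.7 and 131 with a median of 18.5, where a step of 1 unit at a value of 12 is 0.107 on the log2 scale. The second table also lists members at lower levels.

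In FPKM, which allows levels to be compared between genes, the typical member was at the level of the typical entry. Of the 87 members in the second table, 84 were above 0, and their median was 18.2 FPKM in neck, 26.4 in wing and 18.2 in leg. The medians of all 5769 entries above 0 were 17.3, 24.1 and 17.5 FPKM. *CDK2*, *CDK5* and *RFC2* had a listed FPKM of 0 in every region, although the first table gave *CDK2*, the S-phase partner of cyclins E and A, as 27, 37 and 20. It gave *CDK5*, a kinase of neurons, as 26, 27 and 20, and *RFC2*, a clamp loader subunit, as 16, 24 and 14. The second-table zeros of these 3 genes are treated as listed values and support no statement on expression.

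The highest member by mean was *PCNA*, the sliding clamp of the replication fork, at 238 FPKM in neck, 360 in wing and 267 in leg. *CDKN1B*, which encodes the kinase inhibitor p27, followed at 248, 277 and 228 FPKM, and *CDK1*, the mitotic kinase, stood at 136, 197 and 124 FPKM. The lowest member above 0 was *CDK3*, a kinase of exit from quiescence in human cells, at 0.297 FPKM in neck, 1.05 in wing and 0.178 in leg. By role, the median in wing was highest for the genes of mitotic entry (50.9 FPKM) and DNA synthesis (45.6 FPKM) and lowest for the inhibitors (8.96 FPKM), followed by the G1 cyclins and kinases (14.8 FPKM) and the licensing genes (15.7 FPKM). The mitotic entry group counts *AURKAIP1* (57.2 FPKM in wing) by its name. Without it the middle value of that group is *CCNA2* at 44.6 FPKM, below DNA synthesis. Each role group spanned a wide range, and among the 5 inhibitors *CDKN1B* stood far above the others, which had at most 16.7 FPKM.

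**Figure D1:**
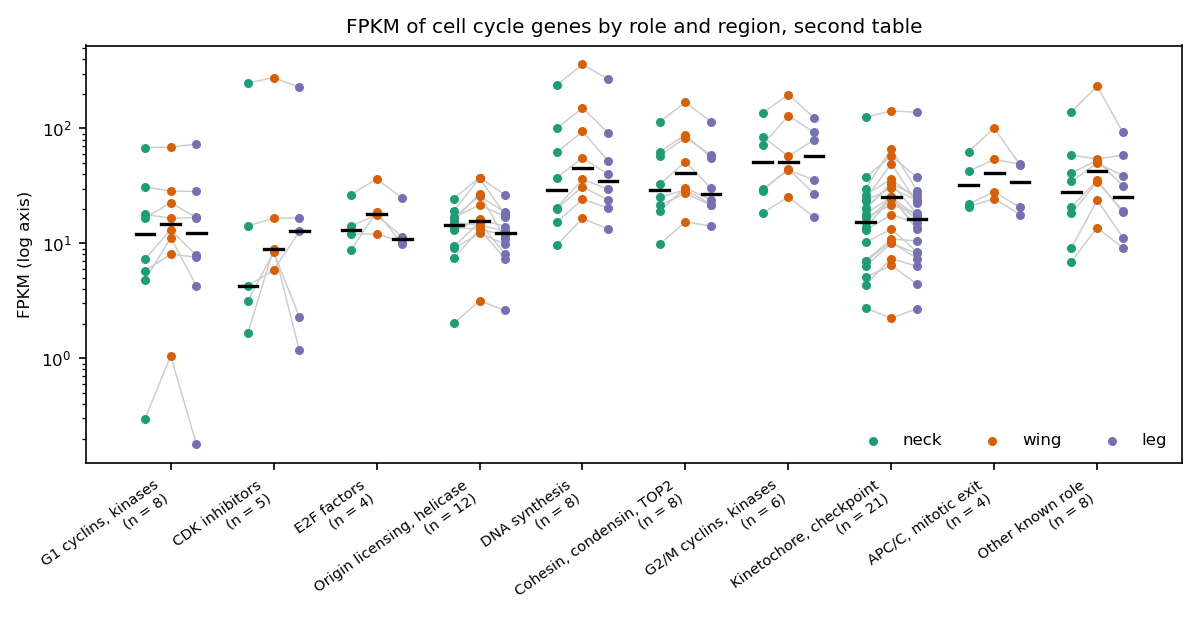
FPKM of the members above 0 in the second table, on a log axis, by role and by region (neck, wing, leg), 1 point per gene and 1 library per region; thin lines join the values of a gene and black bars are medians. The wing medians range from 8.96 FPKM for the inhibitors to 50.9 FPKM for the genes of mitotic entry with *AURKAIP1* counted among them, and *PCNA* is the highest member in wing at 360 FPKM.

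Members were most often highest in the wing feather. In the second table the wing value was the highest of the 3 in 74 of 84 members (88.1%), against 73.1% of all entries, and in the first table in 31 of 50 (62.0%), against 38.8%. In the second table neck was lowest for 41 of 84 members (48.8%), against 38.4% of all entries, and leg for 39 (46.4%), against 43.8%, whereas in the first table leg was lowest for 35 of 50 members (70.0%), against 57.5% of all entries. The members' summed values made up 0.35%, 0.558% and 0.342% of the FPKM totals. These shares depend on the few highest entries, without the 10 highest of which they were 0.482%, 0.631% and 0.499%. In bulk tissue, fewer dividing cells and less RNA of these genes per cell cannot be told apart.

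The size of the wing difference depended on the table. The median log2 ratio of wing to neck, on log2(value + 1), was 0.14 for the 50 members of the first table against -0.08 for all its entries, with 36 of 50 members above the table's median. In the second table it was 0.56 for 84 members against 0.29 for all entries, with 70 of 84 above the table's median. All entries there include 765 at 0 in every library, which lowers their median, while members at 0 were left out. Among entries with a mean of at least 10 the second table gave 0.54 for 68 members against 0.35 for 3604 entries. Of these 68 members, 48 were above that median. The shift between the tables was thus shared by members and other genes. Among the 31 members above 0 in both tables, 22 were higher in wing than in neck in both, 3 were lower in both and 4 differed in direction. Among all 2140 genes above 0 in both tables, these counts were 892, 423 and 708. Relative to the median of the shared genes in each table, 24 of the 31 (77.4%) were above it in both tables, against 39.7% of all 2140 such genes, and 6 (19.4%) were below it in both, against 39.7%. No member of the first table reached a log2 ratio of 1 in size in any comparison, while for wing over neck 5.45% of all its entries reached 1 and 7.79% reached -1. Of the 87 members in the second table, 7 (8.05%) reached 1 for wing over neck, against 11.9% of all entries, and 10 (11.5%) reached -1 for leg over wing, against 11.3%.

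**Figure D2:**
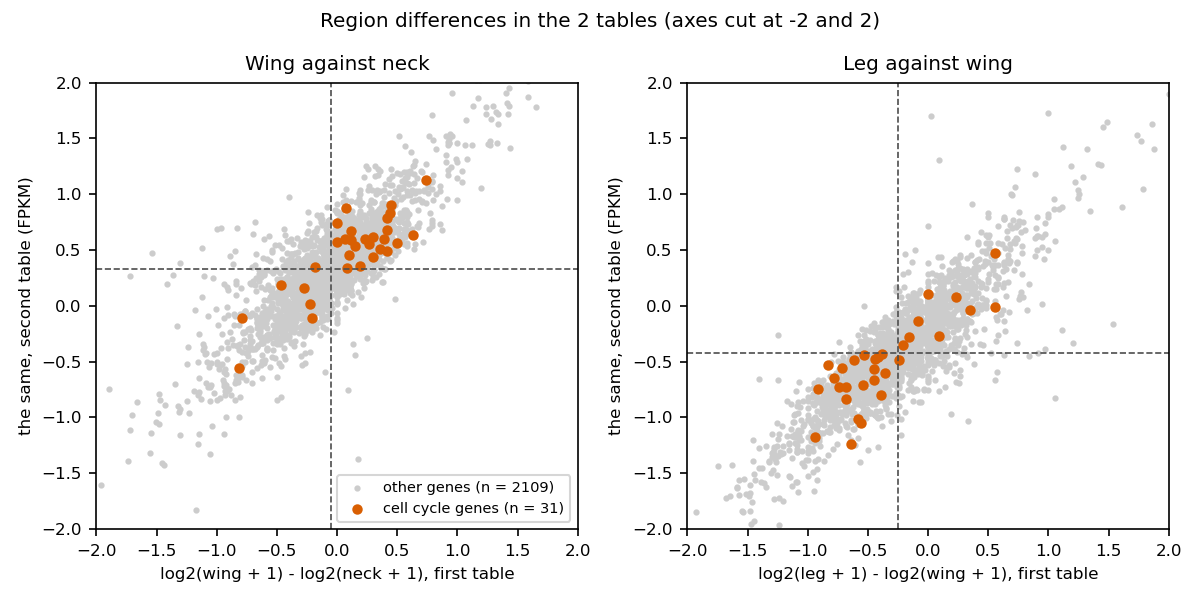
Log2 ratios of wing to neck (left) and leg to wing (right) in the first table (horizontal) and the second (vertical) for genes above 0 in both, with the 31 members in orange and other genes in grey; the axes end at -2 and 2. Dashed lines mark the medians of the 2140 shared genes; for wing to neck 24 members lie above both medians and 6 below both.

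Differences between regions were tested with limma on log2(value + 1) over the 2191 genes in both tables, with the table as a block and Benjamini-Hochberg adjustment over all genes at 0.05. Only 34 members entered. The fit to the deposited values took the same trended spread for all genes and gave each gene's own spread no weight. All p-values measure only the spread between the 2 tables, which may be technical. Because the libraries' overall levels differ by region, each count is also given after every library was centred on its median. The centred fit did weigh each gene's own spread, and its SEs differ (for *CENPH* in wing against neck 0.175 as deposited and 0.072 centred). Calls gained or lost with centring thus reflect both the levels and the changed spread. The 3 comparisons share libraries, leg against wing using the same wing and leg libraries as the other 2.

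The study concerned feather branching, and wing against neck sets the wing feather, labelled a contour feather, beside the neck feather. As deposited, 12 of 34 members (35.3%) were higher in wing, against 19.5% of all genes tested, and 2 (5.88%) were lower, against 8.26%. The 12 were *CCNA2*, *CCNB2*, *CDK5RAP3*, *CENPH*, *MAD2L2*, *ORC6*, *POLE3*, *RRM1*, *SMC2*, *SMC3*, *SMC4* and *TOP2B*, and the 2 were *AURKAIP1* and *CCND3*. The members' median log2 change was 0.36, against 0.14 over all genes. With the libraries centred, 13 (38.2%) were higher, against 22.0%, and 5 (14.7%) lower, against 23.8%. Centring dropped *CDK5RAP3*, added *PCNA* and *RFC4* on the higher side and *CCND1*, *CDC73* and *CDKN1B* on the lower side, and 13 of the 14 calls were shared. When only the 4 neck and wing libraries were fitted, *CENPH* was the single member called.

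Leg against neck gave few calls. As deposited, 1 member (2.94%) was higher in leg, *RRM1*, against 1.78% of all genes, and 1 (2.94%) was lower, *MCM5*, against 10.4%. The members' median log2 change of -0.17 was close to the -0.20 of all genes, and it turned to 0.0446 with centring and 0.0105 with quantile normalization. After centring, limma called 4 members higher (11.8%), namely *CCNB2*, *CCND1*, *CDC27* and *RRM1*, against 9.58% of all genes, and 0 lower, against 8.31%. Under centring 7 members in either direction had an unadjusted p under 0.05, and the share of all genes at that level was not computed.

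Leg against wing gave the most calls. As deposited, 20 of 34 members (58.8%) were lower in leg than in wing, against 40.8% of all genes, and 1 (2.94%), *AURKAIP1*, was higher, against 5.98%. The members' median log2 change was -0.48, against -0.32 over all genes. Among entries with a mean of at least 10, the first table gave -0.447 for 50 members against -0.228 for all such entries. In the second table the members were close to other entries, at -0.45 for 68 members against -0.425 for 3604 entries. There, 30 of the 68 members were above that median. With centring, 12 (35.3%) were lower, against 24.0%, and 6 (17.6%) higher, against 28.3%. The 12 that stayed lower were *CCNA2*, *CDC26*, *CDC40*, *CDK1*, *CENPH*, *MAD2L2*, *MCM5*, *ORC6*, *POLE3*, *SMC2*, *SMC4* and *TOP2B*. The 6 higher were *AURKAIP1*, *BUB3*, *CCND1*, *CCND3*, *CDC27* and *CDC73*, and *CDC27* changed sign with centring, from -0.11 to 0.26. Before centring the tables differ in direction for *BUB3* (0.352 and -0.042) and *CCND3* (0.553 and -0.007).

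**Figure D3:**
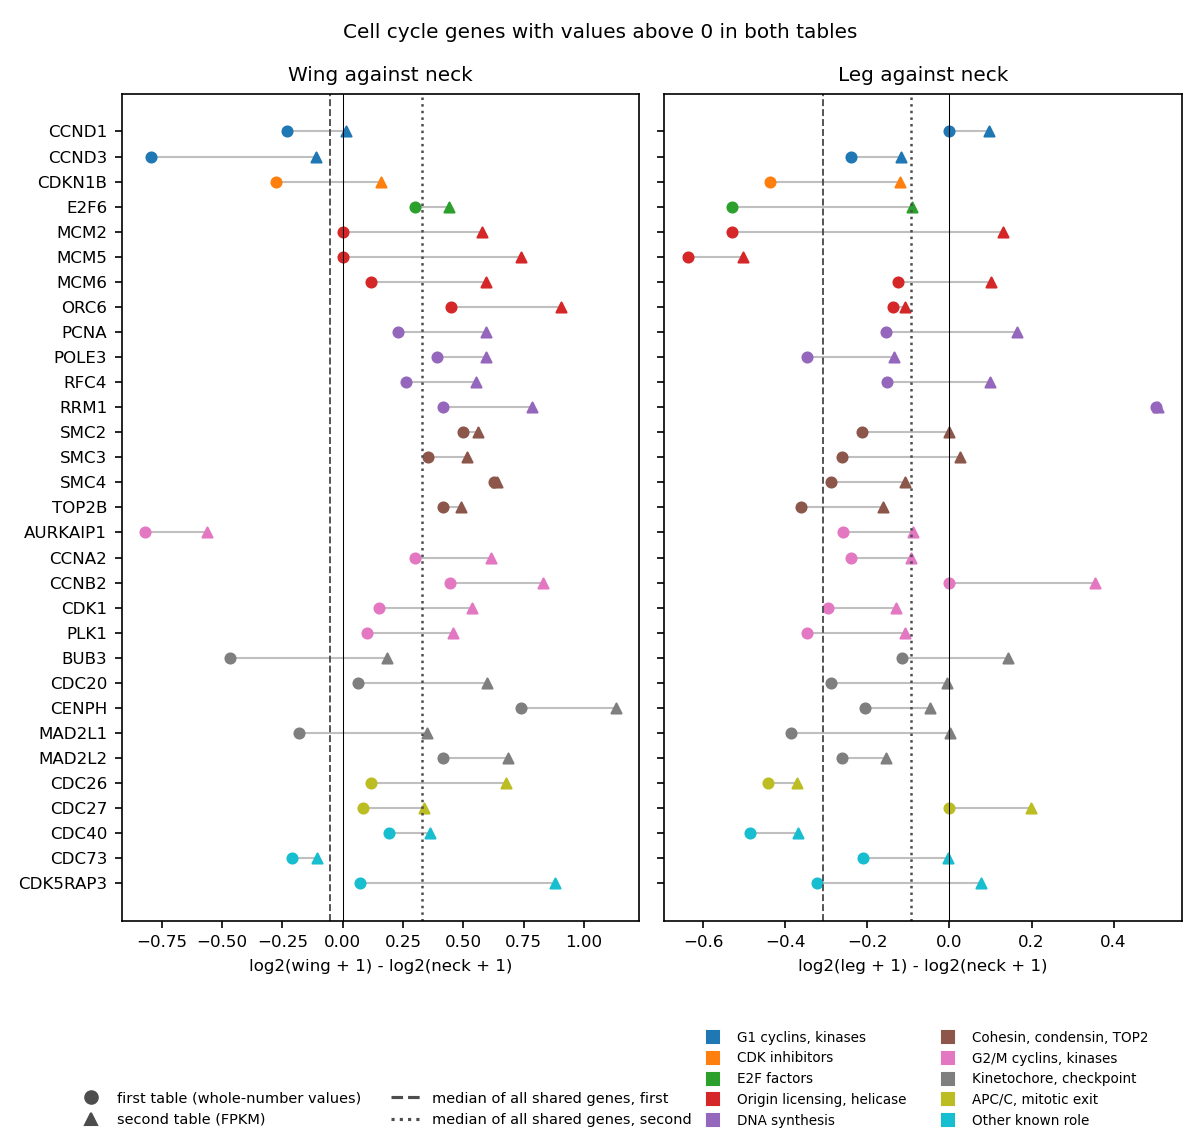
Log2 differences of wing (left) and leg (right) from neck for the 31 members above 0 in both tables, coloured by role, with circles for the first table, triangles for the second, and dashed and dotted lines at the medians of all shared genes. The largest wing difference is that of *CENPH* (0.74 and 1.13 in the tables in turn), and *AURKAIP1* lies furthest below 0 (-0.82 and -0.56).

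In G1, none of the D-type cyclins, which respond to growth signals and activate CDK4 and CDK6, was called higher in wing. *CCND3* read 25, 14 and 21 in the first table and 30.9, 28.5 and 28.3 FPKM in the second. It was the only G1 member called in wing against neck as deposited (log2 change -0.45 ± 0.18 SE, adjusted p = 0.0398), most of it from the first table (-0.79 against -0.11). *CCND1* read 33, 28 and 33 in the first table and 68.1, 68.8 and 72.9 FPKM in the second, so the 3 regions were close in FPKM. With centring it was lower in wing than in neck (-0.26, adjusted p = 0.0209) and higher in leg than in wing (0.52, adjusted p = 0.00186). Before centring the tables differ in direction for wing against neck (-0.229 and 0.015).

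*CDK2* was tested with its second-table zeros and called in no comparison, and the other G1 genes were listed in a single table and could not be tested. *CDC25A*, the phosphatase that activates CDK2, had 4.76 FPKM in neck, 11.2 in wing and 4.27 in leg, a 2.36-fold ratio of wing to neck. *CDK6*, a partner of the D cyclins, was also highest in wing, at 7.29, 13.1 and 7.86 FPKM. *CCNE1*, the cyclin that drives entry into S phase, stood at 16.6, 22.6 and 16.7 FPKM, while *CCND2* was level at 18.0, 16.5 and 16.8 FPKM. The D cyclins were thus level in FPKM, while *CDC25A* and *CDK6* were higher in the wing library. All entries of the second table had a median log2 ratio of wing to neck of 0.29, and the D cyclins lay below it. A ratio of at least 1, which *CDC25A* had, was reached by 11.9% of all entries. *CDC34*, a ubiquitin-conjugating enzyme that helps remove kinase inhibitors, read 25, 20 and 27 in the first table.

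The genes with kinase inhibitor names included the members with the widest ratios. They are grouped by name, and what their chicken products inhibit was not tested. *CDKN2A*, the locus of p16-type inhibitors in mammals, had 1.67 FPKM in neck, 8.96 in wing and 1.17 in leg, a 5.38-fold ratio of wing to neck. *CDKN2B*, its neighbour in mammals and the source of p15, followed at 3.18, 8.38 and 2.28 FPKM. Both were several-fold higher in the single wing library. *CDKN1A*, the p53 target p21, was instead highest in leg, with 4.28, 5.83 and 12.7 FPKM. It was the only member with a log2 ratio of at least 1 for leg over neck (1.15% of the 87 in the second table, against 2.22% of all entries). *CDKN3*, a phosphatase that acts on CDK2, varied little, from 14.2 to 16.7 FPKM. *CDKN1B* read 148, 122 and 109 in the first table and 248, 277 and 228 FPKM in the second, and was called in no comparison as deposited. With centring it was lower in wing than in neck (-0.21, adjusted p = 0.044), a call for which the tables differ in direction (-0.28 and 0.16).

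Of the E2F factors, which control the transcription of S-phase genes, *E2F1* had the widest ratio, at 8.73 FPKM in neck, 18.7 in wing and 9.88 in leg. *E2F6*, a repressor of the family, read 12, 15 and 8 in the first table and 26.5, 36.3 and 24.8 FPKM in the second. It was lower in leg than in wing (-0.68 ± 0.18 SE, adjusted p = 0.000867), a call lost with centring (adjusted p = 0.0656). The repressors *E2F4*, at 14.2, 17.6 and 11.4 FPKM, and *E2F5*, between 10.3 and 12.1 FPKM, were also lowest in leg.

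Among the origin and helicase genes, only *ORC6*, the smallest subunit of the origin recognition complex, was called in wing against neck. It read 10, 14 and 9 in the first table and 19.2, 36.8 and 17.7 FPKM in the second, and was higher in wing than in neck (0.68 ± 0.19 SE, adjusted p = 0.00236) and lower in leg than in wing (-0.80, adjusted p = 0.000127). Wing was its highest library in both tables. Its locus in the first table spans 429 kb, far longer than the other origin genes, so it may hold reads of neighbours. Called members with shorter but still long loci are *CDC73* (99.8 kb), *CCNB2* (86.9 kb), *SMC4* (79.2 kb) and *CDK5RAP3* (66.1 kb). Whether these loci hold reads of neighbours was not tested. The remaining ORC genes were each in 1 table and had smaller ratios of wing to neck or the opposite order. *ORC1* had 9.03, 12.2 and 9.85 FPKM and *ORC3* a ratio of wing to neck of 1.25. *ORC2* (13.8, 13.3 and 11.7 FPKM), *ORC5* (15.1, 14.5 and 12.7 FPKM) and *ORC4* (34, 19 and 21 in the first table) were highest in neck.

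The replicative MCM proteins form the ring that unwinds DNA. *MCM5* read 13, 13 and 8 in the first table and 15.8, 27.1 and 10.9 FPKM in the second, leg being lowest in both. It was the only member lower in leg than in neck (-0.57 ± 0.19 SE, adjusted p = 0.0336), which centring removed (adjusted p = 0.153), and it was lower in leg than in wing with and without centring (-0.94, adjusted p = 1.21e-05, and -0.57, adjusted p = 0.0229). *MCM2* read 12, 12 and 8 and 16.9, 25.7 and 18.6 FPKM, and was lower in leg than in wing as deposited (-0.49, adjusted p = 0.0265). *MCM6* read 11, 12 and 10 and 24.5, 37.4 and 26.4 FPKM, and was called in no comparison. For *MCM2* and *MCM5* the first table gave equal neck and wing values while the second gave wing ratios of 1.52 and 1.71. *MCM3*, in the second table only, had 7.41, 13.3 and 7.33 FPKM, and the repair helicases *MCM8* and *MCM9* had 16.8, 21.5 and 17.1 FPKM and 2.01, 3.17 and 2.61 FPKM. Of the GINS subunits, which join the helicase when it fires, *GINS1* had 9.40, 15.2 and 8.05 FPKM, *GINS3* read 21, 26 and 14 in the first table and *GINS2* read 14, 10 and 11.

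Of the genes of DNA synthesis, all 8 in the first table and all 8 above 0 in the second had a higher value in wing than in neck, against 40.5% and 70.1% of all entries, 765 of which are at 0 in the second table. They had median log2 ratios of 0.40 and 0.60, against -0.08 and 0.29 for all entries of each table. *RRM1*, the large subunit of the ribonucleotide reductase that makes deoxynucleotides, read 11, 15 and 16 in the first table and 20.5, 36.0 and 29.7 FPKM in the second. Its level was higher in wing than in neck (0.60 ± 0.18 SE, adjusted p = 0.00548) and the only member higher in leg than in neck as deposited (0.51 ± 0.18 SE, adjusted p = 0.0442), so that neck was the lowest region in both tables. The leg call was lost when the prior spread had no trend (adjusted p = 0.0615). Its partner *RRM2*, listed in the first table only, did not share the leg value, with 30 in neck, 35 in wing and 23 in leg.

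*POLE3*, a histone-fold subunit of the leading-strand polymerase, read 41, 54 and 32 in the first table and 99.9, 151 and 90.8 FPKM in the second. It was higher in wing than in neck (0.49 ± 0.18 SE, adjusted p = 0.0251) and lower in leg than in wing (-0.73, adjusted p = 0.000191), and both calls held with centring. The other subunits of that polymerase followed the same order in the table that listed each, with *POLE4* at 21, 29 and 18 and *POLE2* at 61.8, 94.1 and 52.1 FPKM. *PCNA* read 98, 115 and 88 in the first table, and its wing excess over neck passed the test after centring only (0.41, adjusted p = 0.106 as deposited, and 0.26, adjusted p = 0.0204). *RFC4*, of the clamp loader that places PCNA on DNA, read 19, 23 and 17 and 37.3, 55.2 and 40.0 FPKM, and passed in wing against neck after centring only (0.26, adjusted p = 0.0238) and in leg against wing as deposited only (-0.43, adjusted p = 0.0275). Of the clamp loader genes in 1 table, *RFC5* read 16, 22 and 11 in the first table and *RFC3* 9.68, 16.5 and 13.3 FPKM.

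Of the genes that shape chromosomes, all 4 in the first table and all 8 in the second had a higher value in wing than in neck, against the same 40.5% and 70.1% of all entries. *SMC2* and *SMC4* encode the paired arms of condensin, which compacts mitotic chromosomes. *SMC2* read 28, 40 and 24 in the first table and 114, 169 and 114 FPKM in the second, and *SMC4* read 10, 16 and 8 and 32.6, 51.2 and 30.1 FPKM. Both were higher in wing than in neck (*SMC2* 0.53 ± 0.18 SE, adjusted p = 0.0134, and *SMC4* 0.63 ± 0.18 SE, adjusted p = 0.00296) and lower in leg than in wing (-0.64, adjusted p = 0.00119, and -0.83, adjusted p = 2.78e-05), with and without centring. Wing was the highest and leg the lowest or equal lowest library in each table for this pair. The condensin I subunits *NCAPD2* (9.82, 15.4 and 14.1 FPKM) and *NCAPH* (19.1, 30.5 and 23.9 FPKM) were in the second table only and were also highest in wing.

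*SMC3*, of the cohesin ring that holds sister chromatids together, read 17, 22 and 14 and 57.8, 83.0 and 58.9 FPKM. Wing was above neck for it (0.43, adjusted p = 0.0442) and leg below wing (-0.55, adjusted p = 0.00427), the second call being lost with centring (adjusted p = 0.0972). *TOP2B*, a DNA-untangling enzyme that non-dividing cells also make, read 17, 23 and 13 and 62.4, 87.9 and 55.6 FPKM. Like *SMC3* it was higher in wing than in neck (0.45, adjusted p = 0.0346) and lower in leg than in wing (-0.71, adjusted p = 0.000176), and its first-table locus of 385 kb may also hold other genes' reads. *TOP2A*, the form tied to division, had a smaller ratio of wing to neck in FPKM (1.17) at 25.1, 29.4 and 21.7 FPKM. *SMC5*, of a repair complex, stood at 21.4, 27.3 and 21.4 FPKM.

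At mitotic entry, *CCNB2*, a B-type cyclin that activates CDK1 and that the RefSeq gene table now files under *CCNB1*, read 38, 52 and 38 in the first table and 72.2, 129 and 92.6 FPKM in the second. It was higher in wing than in neck (0.64 ± 0.18 SE, adjusted p = 0.00226) and lower in leg than in wing as deposited (-0.46, adjusted p = 0.0223), but after centring the latter was not called (adjusted p = 0.27) and leg was above neck (0.39, adjusted p = 0.018). *CCNA2*, the cyclin of S phase and G2, read 12, 15 and 10 and 28.8, 44.6 and 26.9 FPKM. It was higher in wing than in neck (0.46, adjusted p = 0.0433) and lower in leg than in wing (-0.62, adjusted p = 0.00195), both with and without centring.

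*CDK1* read 80, 89 and 65 in the first table beside its 136, 197 and 124 FPKM. Wing against neck did not pass for it (0.34, adjusted p = 0.157), whereas it was lower in leg than in wing (-0.56, adjusted p = 0.00783, and -0.19, adjusted p = 0.0475, with centring). *PLK1*, a kinase of spindle assembly, read 13, 14 and 10 and 18.3, 25.4 and 16.9 FPKM, and was lower in leg than in wing as deposited only (-0.51, adjusted p = 0.0188). *CCNB3* was at 29.5, 43.5 and 35.6 FPKM. The name *AURKAIP1* belongs to a protein that binds Aurora kinase A and is also known as a part of the mitochondrial ribosome. It read 66, 37 and 55 in the first table and 84.8, 57.2 and 79.6 FPKM in the second, wing being lowest in both. For the other genes of mitotic entry wing was the highest. It was lower in wing than in neck (-0.69 ± 0.18 SE, adjusted p = 0.000742) and higher in leg than in wing (0.52 ± 0.18 SE, adjusted p = 0.00959), with and without centring.

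The kinetochore genes were the largest role group, with 21 members in the second table, of which 19 (90.5%) had a ratio of wing to neck above the table's median. All members above 0 there gave 83.3%, and the 765 entries at 0 lower that median. In the first table it was so for 3 of 5 kinetochore genes, whose median log2 ratio was 0.064. The remaining genes, *BUB3* (-0.468) and *MAD2L1* (-0.181), were lower in wing than in neck there. *CENPH*, of the inner kinetochore network that sits on centromeric chromatin, had the largest change of all members tested. It read 14, 24 and 12 in the first table and 29.8, 66.4 and 28.8 FPKM in the second. The wing library was well above the others in both tables, by 1.71-fold and 2.23-fold over neck. It was higher in wing than in neck (0.93 ± 0.18 SE, adjusted p = 1.67e-06) and lower in leg than in wing (-1.06 ± 0.18 SE, adjusted p = 2.16e-08), and with centring these were 0.78 (adjusted p = 0.00106) and -0.69 (adjusted p = 0.00129). Its locus is on chromosome Z from 21911029 to 21917220, and the next member, *CDK7*, starts 10.4 kb further on without sharing its values (28, 27 and 19 in the first table).

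*CENPK*, a direct partner of CENPH in the same network, was in the second table only and followed the same order, at 24.2, 49.4 and 22.5 FPKM. *CENPW* (13.5, 25.2 and 13.7 FPKM) and *CENPU* (15.3, 25.5 and 13.2 FPKM) of that network were also highest in wing. *CENPA*, the histone variant that marks the centromere, was the lowest of the group and not higher in wing, at 2.75, 2.23 and 2.70 FPKM. The other CENP genes had smaller ratios than *CENPH*, from a log2 ratio of wing to neck of 0.29 for *CENPO* (5.07, 6.43 and 4.41 FPKM) to 0.64 for *CENPM* (4.37, 7.38 and 6.31 FPKM).

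The spindle checkpoint holds cells in metaphase until all chromosomes are attached. Its kinases *BUB1* and *BUB1B* had 13.8, 24.4 and 16.2 FPKM and 19.9, 32.8 and 26.1 FPKM. *BUB3*, which recruits them, read 64, 46 and 59 in the first table and 125, 142 and 138 FPKM in the second, so the tables disagreed on the order of neck and wing. As deposited it was called in no comparison, and with centring it was higher in leg than in wing (0.52, adjusted p = 0.00817). For this call too the tables differ in direction before centring (0.352 and -0.042). *MAD2L1*, the checkpoint's inhibitor of CDC20, read 16, 14 and 12 and 23.5, 30.3 and 23.6 FPKM, and was called in no comparison. *CDC20*, which activates the anaphase-promoting complex, read 21, 22 and 17 and 37.8, 57.6 and 37.6 FPKM, and was lower in leg than in wing as deposited only (-0.48, adjusted p = 0.0145). *MAD2L2*, related to MAD2L1 by sequence and best known from lesion bypass, read 11, 15 and 9 and 20.3, 33.2 and 18.1 FPKM. Wing exceeded neck for it (0.55, adjusted p = 0.0165) and leg was below wing (-0.76, adjusted p = 0.000274), with and without centring.

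For the anaphase-promoting complex, *CDC26*, a small subunit, read 139, 151 and 102 in the first table, where it had the highest mean of all members, and 62.7, 101 and 48.2 FPKM in the second. It was lower in leg than in wing (-0.80 ± 0.18 SE, adjusted p = 6.84e-05, and -0.44, adjusted p = 0.0168, with centring). *CDC26* lies on chromosome 17 from 1956415 to 1972058, 17.9 kb from *POLE3* (1934342 to 1938562), and both were lowest in leg. So were 70.0% of members and 57.5% of all entries in the first table, and 46.4% and 43.8% in the second. *CDC27*, a scaffold subunit, was level in the first table at 16, 17 and 16 and had 42.4, 53.8 and 48.8 FPKM in the second. *CDC16* (22.0, 28.1 and 20.6 FPKM) and *CDC23* (11, 12 and 12 in the first table) are other subunits, and *CDC14A*, a phosphatase, had 20.8, 24.5 and 17.8 FPKM. The build of these coordinates is not named in the table. The submitters' notes and the study's methods name galGal4, but 46 loci are on chromosome 33 and others on scaffolds, so the build is unsettled.

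**Figure D4:**
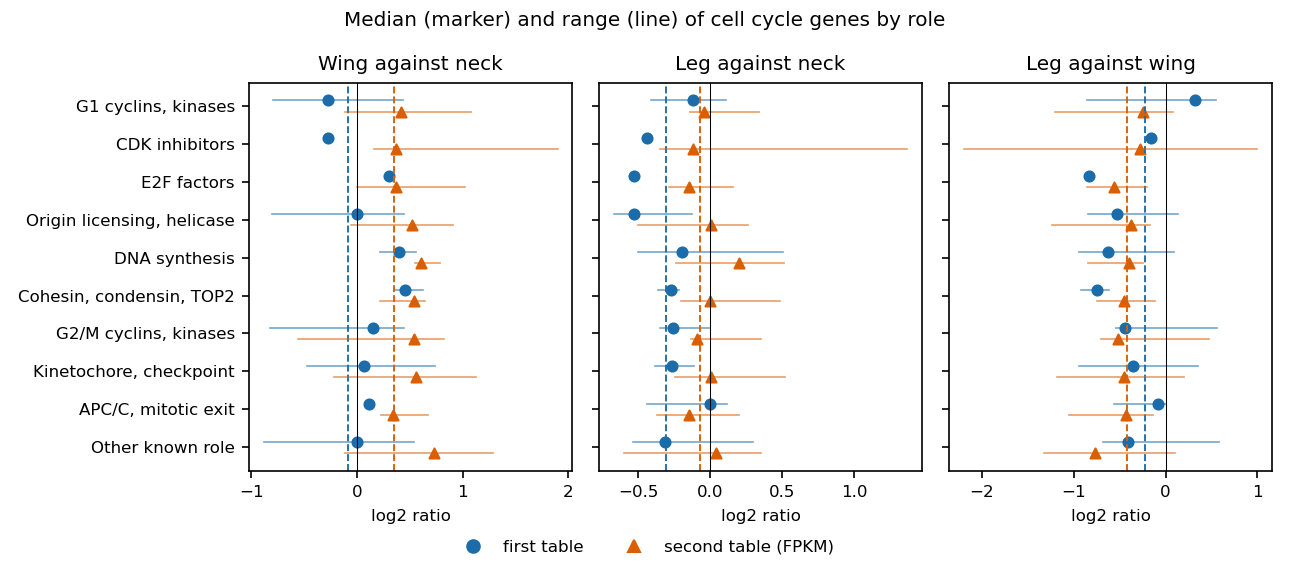
Median (marker) and range (line) of the members' log2 ratios by role for wing to neck, leg to neck and leg to wing, in the first table (circles) and the second (triangles), with a dashed line for each table at the median of its entries whose mean is at least 10. All 8 DNA synthesis genes are above 0 for wing over neck in each table, and the 4 G1 genes of the first table have a median of -0.27.

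The remaining 17 names carry a cell cycle name but mostly other work. *CDC40* and *CDC5L* are splicing factors, *CDC73* belongs to a transcription elongation complex, *CDK9* and *CDK19* act on RNA polymerase II, and *CDC123* takes part in the start of translation. *CDC40* read 13, 15 and 9 and 40.9, 52.8 and 31.5 FPKM, and was lower in leg than in wing (-0.70, adjusted p = 0.000357). *CDC73* read 21, 18 and 18 and 58.6, 54.3 and 58.5 FPKM, and was called with centring only, lower in wing than in neck (-0.31, adjusted p = 0.025). *CDK5RAP3*, first found as a binding partner of the CDK5 activator, read 19, 20 and 15 and 18.2, 34.3 and 19.3 FPKM. It was higher in wing than in neck as deposited (0.47, adjusted p = 0.0343), nearly all of it from the second table (0.88 against 0.07), and this was lost with centring (adjusted p = 0.0982).

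Of the other names in 1 table, *CDK10* had 9.15, 23.8 and 11.2 FPKM, a wing ratio of 2.60, and *CDK2AP1*, whose product binds CDK2, had 140, 233 and 92.2 FPKM, leg being lowest. *PLK2*, a Polo kinase of stress and early G1 rather than of mitosis, read 102, 55 and 83 in the first table and was lowest in wing, unlike *PLK1*. *CDC37L1*, a chaperone partner, was the lowest of these in the first table at 10, 15 and 9, and *PLK1S1*, a centrosome protein, in the second at 6.95, 13.7 and 9.12 FPKM. Without these 17 names, wing was the highest of the 3 regions in 25 of 38 members (65.8%) of the first table, against 38.8% of all entries. In the second table it was the highest in 67 of 76 (88.2%), against 73.1%.

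A list of 129 further cell cycle and replication genes, outside the rule, was read beside the members. Of these, 37 were in the first table, 65 were above 0 in the second and 25 were tested. In wing against neck 7 of 25 (28.0%, against 19.5% of all genes) were higher (*BIRC5*, *CDCA3*, *DUT*, *GMNN*, *KPNA2*, *NUF2* and *SPC25*) and 1 (4.0%, against 8.26%) was lower (*WAPAL*, which releases cohesin, -0.48, adjusted p = 0.0275). In leg against neck only *GMNN* was called, as lower (4.0%, against 10.4%), and in leg against wing 11 (44.0%) were lower, near the 40.8% of all genes, and no other was called. With centring 9 were higher and 3 lower in wing against neck (36% and 12%, against 22.0% and 23.8%), and 3 and 1 in leg against neck (12% and 4%, against 9.58% and 8.31%). In leg against wing 5 and 5 were called with centring (20% each, below the 28.3% and 24.0% of all genes). The largest wing excesses over neck were those of *DUT*, which keeps uracil out of DNA (32, 48 and 27, and 44.2, 81.2 and 43.3 FPKM, log2 change 0.72), *NUF2*, of the outer kinetochore (9, 13 and 9, and 20.8, 39.8 and 22.3 FPKM, 0.69), and *KPNA2*, a nuclear import factor (34, 47 and 39, and 77.2, 130 and 95.8 FPKM, 0.60). *GMNN* encodes geminin, which blocks a repeat of licensing until the cell has divided. It read 40, 58 and 23 in the first table and 91.9, 140 and 62.4 FPKM in the second, leg being lowest in both, and was lower in leg than in neck (-0.66, adjusted p = 0.00325) and than in wing (-1.22, adjusted p = 7.36e-11). *SPC25*, of the outer kinetochore, had the next largest change in leg against wing (11, 13 and 7, and 23.1, 41.3 and 20.2 FPKM, -0.90, adjusted p = 1.14e-05), followed by *DUT* (-0.85, adjusted p = 7.01e-06).

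Markers of other cell types were read beside the members. The summed level of the mesenchyme list (collagens, *LUM*, *DCN*, *VIM* and others, 19 of 22 listed in the second table and none at 0) was 427, 1870 and 987 FPKM, and 202, 635 and 384 over the 7 that the first table lists. Its 19 second-table genes all had a ratio of wing to neck above the table's median. The blood and endothelium list had 11.8, 89.7 and 27.9 FPKM (9 of 18 listed, *HBZ* at 0), and all 8 above 0 were above that median. The melanocyte list had 230, 490 and 199 FPKM (10 of 12, *PMEL* at 0 there though not in the first table), with 6 of 9 above the median and a median log2 ratio of 0.40, and 273, 820 and 194 over 7 in the first table. The leukocyte list had 55.1, 143 and 142 FPKM (8 of 10, none at 0), as high in leg as in wing, and its 1 gene in the first table read 19, 47 and 59. For the epithelium list (*CDH1*, *TP63*, keratins and junction genes) the median log2 ratio of wing to neck was 0.30 in the second table. That was near the 0.29 of all entries. In the first table the list was lower, at -0.21 against -0.08 for all entries, with 4 of its 10 genes above the table's median. Its sums were 3100, 4220 and 2870 FPKM (10 of 20 listed, *KRT5*, *KRT6A* and *KRT75* at 0 there) and 1370, 1450 and 1160 in the first table. The part of these cell types in the members' wing values was not tested.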

How the data were processed

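Total RNA of growing feathers was sequenced by the authors on an Illumina platform. The submitters' processing notes list TopHat2 2.1.0, Cufflinks 2.2.1 and galGal4 without saying which step or table each served. The first deposited table holds whole numbers of an unstated unit, treated as a score with no fixed scale and not as read counts, for replicate 1. The second deposited table holds FPKM for replicate 2, and the authors' mean column in it was not used, nor were 101 rows without values. Names turned into dates or numbers (8 in the first table, 11 in the second) were not recovered, and 8 merged first-table entries that hold a name of the rule were left out.

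Values were tested with limma 3.58.1 (R 4.3.3), with a trended prior in eBayes, on log2(value + 1) over the 2191 genes in both tables with a mean of at least 1, with the replicate number as a block and Benjamini-Hochberg adjustment at 0.05. The replicate number is also the table, so the block removes the difference of unit, and its source is the title and description of each sample. With 2 replicates their deviations mirror each other, so the correlations of same-numbered libraries (0.968 to 0.99) show the tables' difference of scale. The fit had 2 residual degrees of freedom. Tested on simulated data for wing against neck, it recovered 164 of 200 genes at a log2 change of 1 and 199 of 200 at a change of 2, with 8 false calls each, over 2191 genes. Changes between 0 and 1 were not simulated, and the simulated noise was independent between genes. Nor was a difference in overall level between regions simulated, which the deposited values have, so the false calls do not cover it. Among the called members only *CENPH* in leg against wing (-1.06) reached 1 in size, so these figures do not cover the other calls. Single-table members have 1 library per region and no test, and log2 ratios there also use a pseudocount of 1.

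Members, role lists, marker lists and the pathway list were chosen with earlier results of these data known. *MCM3AP* and *PLK1S1* were given their role after their values were seen. Values in every library are given for members in both tables and for members called. Of members in 1 table, those named include the highest and lowest of each role by mean and those with a log2 ratio of at least 1 in size. Many others, such as *CDK6*, *BUB1*, *MCM3* and *ORC1*, were also named and were chosen after their values were seen. Alternatives were no block, centring, quantile normalization, a pseudocount of 0.1, no filter, 4 libraries, no trend and the same direction in both tables. Centring without the genes at 0 in the second table was added after seeing the data.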

Additional observations from a re-analysis of the deposited data

How the results depend on the processing

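Without the replicate block no member was called, at the adjusted or at an unadjusted p under 0.05 (0 in wing against neck, 0 in leg against neck and 0 in leg against wing), and of all genes 1, 0 and 2 were called, since the unit of the tables then enters the spread; all 37 calls of single members with the block were lost. As reported, members gave 14, 2 and 21 calls and all genes 608, 266 and 1024. In wing against neck the members' count was 1 with the 4 libraries alone and 9 without the trend, and the count of all genes was 1002 with centring, 1035 with quantile normalization, 199 with 4 libraries and 1037 with centring without the genes at 0 in the second table, an alternative chosen after seeing the data. In leg against neck the members' counts were 4, 5, 1 and 4 with centring, quantile normalization, no trend and that last centring, and the counts of all genes were 448 with quantile normalization and 426 with that last centring. The members' median log2 change in leg against neck (-0.17) turned to 0.0446 with centring and 0.0105 with quantile normalization, and that in leg against wing (-0.48) was -0.12 and -0.18. With 1 replicate left out no call was possible, for lack of residual degrees of freedom, and the median lay between 0.17 and 0.55 in wing against neck, between -0.26 and -0.01 in leg against neck and between -0.49 and -0.45 in leg against wing. No call of a single member changed direction with either centring, quantile normalization, a pseudocount of 0.1 or 1 replicate left out. The other alternatives leave the log2 change as it is, so no direction could change there. Of the 37 calls, 10 were lost with centring, 8 with quantile normalization, 13 with 4 libraries, 6 without the trend and 1 with a pseudocount of 0.1. Depth is unknown, and steps of 1 unit limit the first table.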
